A study of Homo sapiens with 6 samples.

Results

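The Notch genes of these arrays are the 4 receptors NOTCH1, NOTCH2, NOTCH3 and NOTCH4, the ligands JAG1, JAG2 and DLL1, and the transcriptional repressors HES1, HEY1 and HEY2, which are the best-known targets of the pathway. They were taken as every gene probe whose RefSeq transcript accession belongs to 1 of these 10 genes, out of 20503 named genes, a rule that names genes and sets no threshold on their values. The genes were chosen with earlier results of these data known. The 10 genes had 12 probes among the 50599 gene probes of the array, 2 each for NOTCH1 and NOTCH2 and 1 for each of the others, and every probe was kept separately. RNA came from A673, a cell line derived from an Ewing sarcoma, which carried the tetracycline repressor (TR). The A673/TR/empty cells held the inducible lentiviral vector with no insert, and the A673/TR/LOX-PP cells held the same vector with a cDNA for LOX-PP, the propeptide that is released when lysyl oxidase (LOX) matures. Each group had 3 separate experiments and 1 array per experiment, and the comparison asked which genes respond to LOX-PP. The sample labels give doxycycline at 1 µM for 72 h for all 6 samples, whereas the methods of the study name this stimulation clearly only for the A673/TR/LOX-PP cells and elsewhere give doses in µg/ml, so the dose and whether the controls received it are not settled. The study selected stable clones, described for the control line as well, and carried on with those of highest induced expression. The sources used here do not say which cells went on the arrays. A difference between separately selected cells cannot be told apart from an effect of LOX-PP.

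Notch signalling passes between touching cells. A ligand on one cell (the Jagged and Delta-like proteins) binds a Notch receptor on its neighbour, the proteases ADAM10 and gamma-secretase cut the receptor, and the freed intracellular domain enters the nucleus, where with the DNA-binding protein RBPJ and a Mastermind co-activator it switches on genes such as HES1 and HEY1. The HES and HEY proteins are themselves repressors, and the pathway governs cell fate choices in neural and mesenchymal tissues.

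All values are the log2 of the background-corrected spot signal minus the 75th percentile of the same array, so that 0 is the signal at that percentile and 1 unit is a 2-fold difference. The log2 change is the mean of the A673/TR/LOX-PP arrays minus the mean of the A673/TR/empty arrays, and the levels of different probes cannot be set against each other. The share of gene spots well above background ran from 56.9% to 74.8% per array, and array profiles correlated at r = 0.955 to 0.995 within groups and 0.938 to 0.971 between them. Slide 2 and scan 2 held replicate 1 of A673/TR/LOX-PP only, and all 5 others shared slide 1 and scan 1. The LOX probe, meant as a check of the labels, was not higher in A673/TR/LOX-PP. It was 0.13 ± 0.22 (SD, n = 3) in A673/TR/empty and -0.70 ± 0.58 (SD, n = 3) in A673/TR/LOX-PP (change -0.82, adjusted p = 0.217, limma). The insert codes only for the propeptide part of LOX, and where in the LOX transcript this probe lies is not given in the files. The probe therefore cannot check the labels, and "the LOX-PP arrays" means the arrays labelled A673/TR/LOX-PP. All 7 Ewing sarcoma markers (NKX2-2, NR0B1, STEAP1, CD99, PRKCB, CCK and FLI1) were well above background on all 6 arrays, with values from -0.30 to 6.42. Of these, CCK was lower in A673/TR/LOX-PP (change -2.54, adjusted p = 0.0100, limma), and the other 6 did not pass the test. Of the 3 epithelial markers, CDH1 and KRT5 were well above background on no array and EPCAM on all 6, at -2.84 or below. Of the 3 endothelial markers 2 were well above background on all 6 arrays by at least 1 probe, and of the 3 leukocyte markers all 3. Counted by probe, this held for 3 of 6 endothelial and 3 of 6 leukocyte probes. The highest values among the endothelial and leukocyte probes were -2.19 and -1.91, and none passed the test. Among the endothelial markers PECAM1 gave 1.36 and 2.13 (adjusted p = 0.0955 and 0.230, limma), CDH5 0.08, and VWF -0.22 and 0.82. Among fibroblast markers, 1 of 3 genes moved: LUM was lower in A673/TR/LOX-PP (change -2.29, adjusted p = 0.0191, limma), with 3 of 6 arrays above background, DCN (at most 0.50) did not pass and PDGFRA was too dim to be tested. The part of these markers in the Notch values was not tested. The median change over the 32647 tested probes was 0.13, against -0.03 under quantile normalization, so the changes of the Notch genes and of the pathway probes past the threshold are also given relative to 0.13.

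Of the 12 Notch probes, 11, from 9 genes, were well above background on at least 3 arrays and were tested, 9 of them on all 6 arrays. JAG1 and HEY1 fell, and no tested member passed the test as higher. In RNA from whole cultures, fewer cells with a transcript and less of it per cell cannot be told apart. Over all tested probes 5.66% passed the test (adjusted p under 0.05), 3.31% as higher and 2.36% as lower, compared with 0 and 2 of the 11 Notch probes. At an unadjusted p under 0.05, 1 Notch probe (JAG2) was higher and 2 were lower in limma, 3 of 11 where 21.3% of all tested probes were under this level, and the methods' t-test gave 0 and 2. That test passed 0 Notch probes in either direction after adjustment. The groups did not overlap for 3 of the 11, JAG2 on the higher side and JAG1 and HEY1 on the lower, while over all tested probes this held for 29.5%, 16.1% higher and 13.4% lower. The median change of the 11 probes was 0.08 (all tested probes 0.13, with quartiles of -0.24 and 0.52), and 5 of the 11 lay above the median of all probes.

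**Figure D1:**
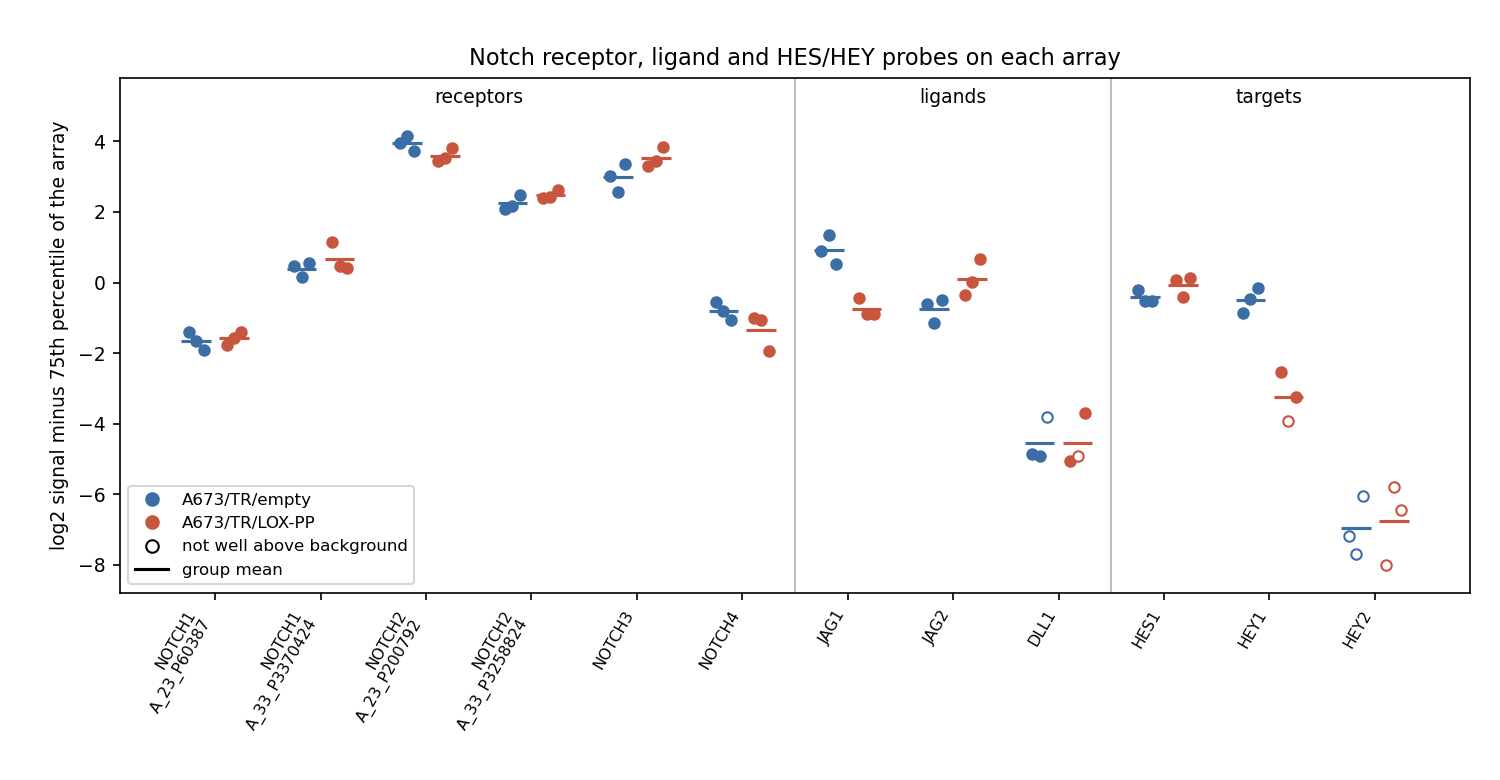
Signal of the 12 Notch probes on each array, as log2 signal minus the 75th percentile of the array. Points are single arrays (blue A673/TR/empty, red A673/TR/LOX-PP), open points were not well above background, and bars are group means of 3 arrays. The red points lie apart from and below the blue ones for JAG1 and HEY1, and just above them for JAG2.

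The receptors gave no call. NOTCH1 lies on chromosome 9 and was read by 2 probes of the same transcript. The first (A_23_P60387), the mean of 10 spots per array, was -1.42, -1.65 and -1.91 in A673/TR/empty and -1.77, -1.56 and -1.40 in A673/TR/LOX-PP. The second (A_33_P3370424) was 0.47, 0.16 and 0.57 in A673/TR/empty and 1.14, 0.47 and 0.42 in A673/TR/LOX-PP. The groups overlapped at both probes. The changes were 0.08 ± 0.23 (SE, 95% interval -0.47 to 0.63, adjusted p = 0.878, limma) and 0.28 ± 0.27 (-0.37 to 0.93, adjusted p = 0.609). The high value of the second probe came from replicate 1 of A673/TR/LOX-PP, the array of slide 2. Relative to all probes the changes of NOTCH1 were -0.05 and 0.15.

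NOTCH2, on chromosome 1, had 2 probes that went opposite ways. The probe of the longer transcript (A_23_P200792) was 3.96, 4.17 and 3.73 in A673/TR/empty and 3.43, 3.54 and 3.80 in A673/TR/LOX-PP, a change of -0.36 ± 0.23 (-0.90 to 0.18, relative -0.48, adjusted p = 0.416). The probe of the other transcript (A_33_P3258824) was 2.08, 2.18 and 2.48, and 2.38, 2.43 and 2.61, a change of 0.23 ± 0.22 (-0.28 to 0.74, relative 0.10, adjusted p = 0.595). The groups overlapped at both probes. NOTCH2 has near-identical partial copies in the genome (the NOTCH2NL genes), and whether either probe also reads them was not tested, since the files hold no probe sequence.

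NOTCH3, the receptor best known from vascular smooth muscle (chromosome 19), was 3.03, 2.57 and 3.35 in A673/TR/empty and 3.32, 3.43 and 3.84 in A673/TR/LOX-PP. Only the lowest LOX-PP array lay below the highest control array. The change was 0.54 ± 0.28 (-0.12 to 1.21), or 0.42 relative to all probes, with an adjusted p of 0.318. NOTCH4, the receptor best known from endothelium (chromosome 6), leaned the other way. Its values were -0.56, -0.81 and -1.08 in A673/TR/empty and -1.01, -1.07 and -1.95 in A673/TR/LOX-PP and replicate 3 of the latter was the lowest. The change was -0.52 ± 0.32 (-1.28 to 0.23, relative -0.65, adjusted p = 0.394). All 6 receptor probes were well above background on all 6 arrays, 0 of 6 passed the test, and 0 of 6 had an unadjusted p under 0.05 in limma or in the methods' t-test. Their intervals allow changes of at most 1.28 downwards and 1.21 upwards on the log2 scale.

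JAG1, a ligand of the Jagged class and the gene affected in Alagille syndrome, fell. Its probe (A_23_P210763, chromosome 20) was 0.90, 1.35 and 0.52 in A673/TR/empty and -0.43, -0.89 and -0.90 in A673/TR/LOX-PP, each of them well above background. The lowest control array and the highest LOX-PP array were 0.95 apart, more than the range within either group. The change was -1.67 ± 0.29 (-2.35 to -0.98), 3.17-fold lower with a 95% interval of 1.98-fold to 5.1-fold, or -1.79 relative to all probes (adjusted p = 0.0235, limma with Benjamini-Hochberg adjustment). The fall was as large within slide 1, that is, without replicate 1 of A673/TR/LOX-PP (-1.82, adjusted p = 0.027), and with the slide as a random block (-1.75, adjusted p = 0.0133). It did not pass in 7 of 16 alternatives. Among them were leaving out control replicate 1 (adjusted p = 0.125) or 2 (0.105), or LOX-PP replicate 2 (0.0736) or 3 (0.0699). The others were the methods' t-test (0.0883), no filter on dim probes (0.0926) and a replicate block (0.0614). Over these and the other alternatives the change ran from -1.87 to -1.45 and its adjusted p from 0.0129 to 0.125.

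JAG2, the other Jagged ligand (chromosome 14), lay higher without passing the test. The probe (A_23_P106024), the mean of 10 spots per array, was -0.60, -1.15 and -0.50 in A673/TR/empty and -0.34, 0.00 and 0.68 in A673/TR/LOX-PP. The groups did not overlap but were only 0.15 apart, less than the range within either group. The spots of this probe on one array varied by an SD of 0.061 to 0.091, far less than the arrays of a group (0.35 and 0.52). The change was 0.86 ± 0.33 (0.07 to 1.65, relative 0.73), with an unadjusted p of 0.0371 and an adjusted p of 0.201, and it ran from 0.58 to 1.09 over the alternatives without passing in any of them. JAG1 and JAG2 therefore had changes of opposite sign, of which that of JAG1 alone passed the test.

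DLL1, a Delta-like ligand (chromosome 6), was near the limit of detection. Its values were -4.87, -4.93 and -3.82 in A673/TR/empty and -5.07, -4.92 and -3.70 in A673/TR/LOX-PP, with 2 of 3 arrays well above background in each group. The groups overlapped over nearly their whole ranges. The change of -0.02 ± 0.47 (-1.13 to 1.08, relative -0.15, adjusted p = 0.984) is the least precise among the Notch probes, and its sign turned under several alternatives, to 0.13 relative to all probes under normexp background correction.

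**Figure D2:**
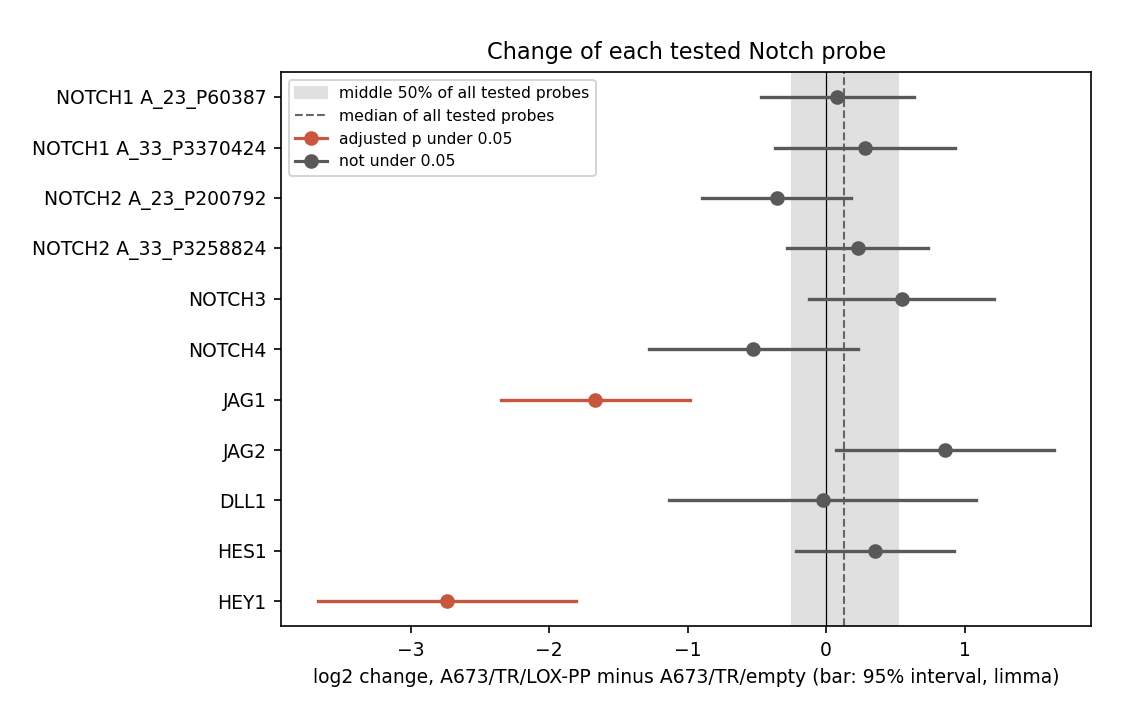
Change of the 11 tested Notch probes, A673/TR/LOX-PP minus A673/TR/empty on the log2 scale, with the 95% interval from limma. Red marks an adjusted p under 0.05, the dashed line the median of all 32647 tested probes (0.13), and the grey band their middle 50% (-0.24 to 0.52). The intervals of JAG1 and HEY1 lie wholly below the band.

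HES1 is the classic direct target of the receptor's intracellular domain, through sites bound by RBPJ close to its transcription start. The sequences before the start of HES1 and of JAG1 are shown because one is the textbook RBPJ promoter and the other belongs to the ligand that fell. They are the 250 bases before the RefSeq start in GRCh38.p14, 5′ to 3′ on the strand of the gene, at chr3:194135898-194136147 on the plus strand for HES1 and at chr20:10674000-10674249 on the minus strand for JAG1, and capitals mark TGGGAA, the core of the RBPJ motif.
HES1: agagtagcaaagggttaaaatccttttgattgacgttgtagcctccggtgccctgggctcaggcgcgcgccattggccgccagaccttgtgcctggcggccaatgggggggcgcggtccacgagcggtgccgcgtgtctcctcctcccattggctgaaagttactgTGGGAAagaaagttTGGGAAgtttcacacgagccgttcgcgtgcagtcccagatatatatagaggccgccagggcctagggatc
JAG1: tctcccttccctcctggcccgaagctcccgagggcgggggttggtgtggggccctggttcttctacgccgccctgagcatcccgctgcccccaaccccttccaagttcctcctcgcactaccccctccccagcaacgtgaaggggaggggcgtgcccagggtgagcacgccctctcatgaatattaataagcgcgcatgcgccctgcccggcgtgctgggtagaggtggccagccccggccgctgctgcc

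The letters TGGGAA were searched on both strands from 250 bases before to 50 after the start, the window of the RefSeq table. They occurred in the HES1 window at positions -84 and -70, with the start as position 0, and in the HEY2 window at -213 and -3. The windows of JAG1, JAG2 and the 4 receptors held no match. Of 27305 promoters of this length, 24.3% hold this motif. The N-box CACNAG, a binding motif of HES proteins, was found 4 times in the HES1 window, at -165, -132, -58 and 15. It was also found in the windows of NOTCH1 (-1 and 1, overlapping), NOTCH2 (-4), NOTCH3 (-211) and NOTCH4 (-75), and in 38.0% of all promoters. The E-box CACGTG, bound by HEY proteins, was in none of the 8 member windows and in 7.43% of all promoters. The windows of HEY1 and DLL1 were not analysed here.

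The signal of HES1 (A_23_P6596, chromosome 3) was -0.22, -0.52 and -0.53 in A673/TR/empty and 0.07, -0.41 and 0.12 in A673/TR/LOX-PP. Replicate 2 of A673/TR/LOX-PP lay inside the control range and the other LOX-PP arrays above it. The change was 0.35 ± 0.24 (-0.22 to 0.92, relative 0.23, adjusted p = 0.45), between 0.26 and 0.52 over the alternatives, and it passed in none of them.

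HEY1, a repressor of the same family that acts in vascular, cardiac and bone development, had the lowest change of the Notch probes. Its probe (A_32_P83845, chromosome 8) was -0.86, -0.48 and -0.15 in A673/TR/empty and -2.53, -3.93 and -3.25 in A673/TR/LOX-PP. All 3 control arrays and 2 of the 3 LOX-PP arrays were well above background. On LOX-PP replicate 2 it was not. The groups were 1.67 apart, more than the range within either. The change was -2.74 ± 0.39 (-3.67 to -1.81), 6.68-fold lower with an interval of 3.51-fold to 12.7-fold, or -2.87 relative to all probes (adjusted p = 0.0126, limma with Benjamini-Hochberg adjustment). Under normexp, the other background correction, it was -2.21. The common floor, at -4.81, lay below every HEY1 value and so could not alter the change. Without LOX-PP replicate 2 the change was -2.39 (adjusted p = 0.0289), within slide 1 -3.09 (0.00958) and with the slide as a random block -2.93 (0.00464). The fall did not pass without control replicate 1 (adjusted p = 0.0536) or 2 (0.0706), in the methods' t-test (0.0836) or with no filter on dim probes (0.0538), and over all alternatives the adjusted p ran from 0.00464 to 0.0836.

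HEY2, the remaining HEY gene (chromosome 6, A_24_P363408), was not well above background on any of the 6 arrays and was not tested. Among the targets, HEY1 therefore fell, HES1 gave a positive value that did not pass, and HEY2 was not well above background in either group.

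**Figure D3:**
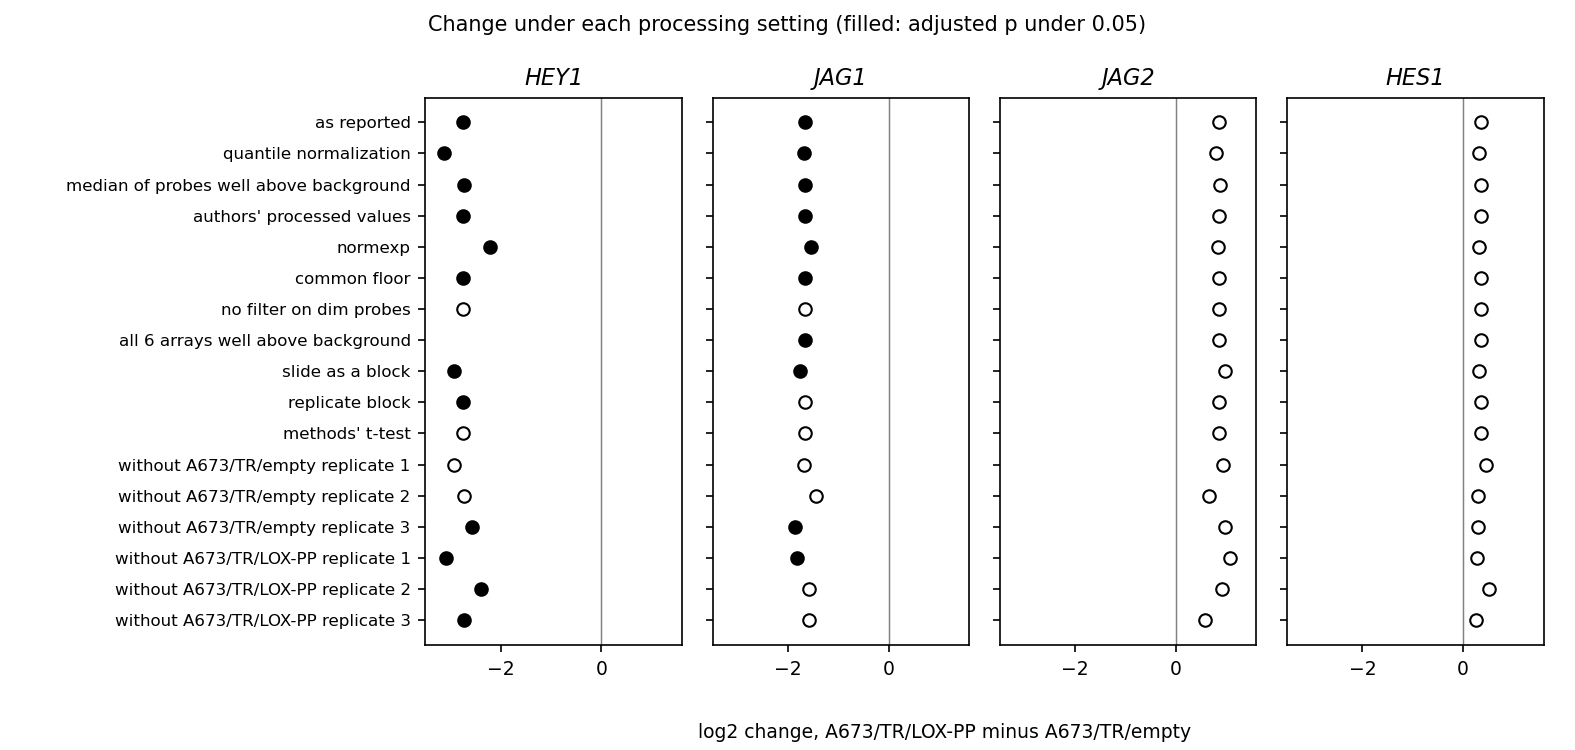
Change of HEY1, JAG1, JAG2 and HES1 as reported and under the 16 alternative settings, on the log2 scale, A673/TR/LOX-PP minus A673/TR/empty. Filled points had an adjusted p under 0.05 and open points did not, and HEY1 has no point where all 6 arrays had to be well above background. HEY1 and JAG1 stay below 0 in every setting shown and JAG2 and HES1 above 0.

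Chromosome and neighbours were compared for the 2 genes that fell. On chromosome 20, which holds JAG1, the median change of 645 tested probes was 0.05 relative to all probes, and 2.02% were lower past the threshold, near the 2.36% of all probes. On chromosome 8, which holds HEY1, the median of 720 probes was -0.39 relative to all probes and 10.0% were lower past the threshold. The 5 tested genes on each side of JAG1 had changes from -0.87 (PLCB4) to 1.02 (ANKEF1), 8 of 10 lay below the median of all probes and 0 of 10 passed. Of the 10 around HEY1, 9 lay below that median and 3 passed: TPD52 (-2.38, adjusted p = 0.0105) and PAG1 (-3.25, adjusted p = 0.00528) fell, and STMN2, the next tested gene on one side of HEY1, rose (4.23, adjusted p = 0.0238, limma). The comparisons of chromosome and of neighbours were chosen after the values of JAG1 and HEY1 were seen, and the part of the chromosome in the fall of HEY1 was not tested.

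Over the 6 arrays, and among 22213 named tested probes, the probe most like HEY1 was H1-5 (Pearson r = 0.993), followed by UGGT2 (0.992) and MZT1 (0.989). The probes most like JAG1 were FAXC, NUS1 and AMIGO2, each at r = 0.997. These values describe likeness over 6 arrays that share the grouping, and no test was made of them.

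The rest of the pathway was taken from a list of 74 genes in 7 roles, written by hand with earlier results of these data known. Of the 74, 72 had a probe and 65 genes, with 92 probes, were tested. In all, 4 probes passed the test as higher and 0 as lower, which is 4.35% of the 92 against 5.66% of all tested probes. At an unadjusted p under 0.05, 13 were higher and 7 lower in limma, 20 of 92 and so near the 21.3% of all tested probes, and 10 and 7 in the methods' t-test, which after adjustment passed 3 and 0. The median change was -0.01, or -0.14 relative to all probes, and the groups did not overlap for 15 probes on the higher and 12 on the lower side, shares near the 16.1% and 13.4% of all tested probes. The 4 calls fell in the co-repressors and in the enzymes of ubiquitination.

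Among the 22 probes of co-repressors, TLE2 and TLE1 rose, both Groucho-type co-repressors that HES proteins recruit. The other TLE genes did not pass and differed in sign. TLE3 gave 0.38 (adjusted p = 0.542, limma). TLE4 gave -0.95 at its first probe, where the LOX-PP arrays lay wholly below the controls (adjusted p = 0.0952, limma), and -0.05 at its second (0.937). TLE2 (A_23_P153676) was -0.39, -1.0 and -0.53 in A673/TR/empty and 1.41, 1.49 and 1.94 in A673/TR/LOX-PP, a gap wider than the range within either group. The change was 2.25 ± 0.27 (relative 2.13, 4.77-fold higher, 3.08 to 7.38, adjusted p = 0.0062), and it passed in all 16 alternatives. TLE1 (A_23_P135239) was -2.97, -2.83 and -2.83 in A673/TR/empty and -1.32, -0.93 and -1.33 in A673/TR/LOX-PP, a change of 1.69 ± 0.22 (relative 1.56, adjusted p = 0.00832). Its other tested probes gave 1.21 (adjusted p = 0.335) and 0.67 (adjusted p = 0.211), and the call was lost without control replicate 1 (0.073) or 2 (0.0555), within a range of 0.00422 to 0.073 over the alternatives.

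Of the 23 probes of ubiquitination and endocytosis, NEURL1B, an E3 ligase of the Neuralized family that acts on the ligands, and DTX1, the E3 ligase Deltex, which binds the receptors, rose. NEURL1B (A_32_P198731) was -0.56, -1.01 and -0.40 in A673/TR/empty and 0.82, 1.26 and 1.29 in A673/TR/LOX-PP, a change of 1.78 ± 0.26 (relative 1.66, adjusted p = 0.0136), while its second probe gave -0.01 ± 0.49 (adjusted p = 0.993). DTX1 (A_24_P290751) was -4.81, -5.41 and -4.88 in A673/TR/empty and -3.48, -2.59 and -2.04 in A673/TR/LOX-PP, with 1 of the 3 control arrays and all 3 LOX-PP arrays well above background. DTX1 thus met the filter through the LOX-PP arrays, and the size of its change is uncertain, at 2.33 ± 0.40 (relative 2.20, adjusted p = 0.0223), 2.10 with the common floor and 1.71 under normexp. The call of NEURL1B was lost without control replicate 1 or 2 (0.0809 and 0.0711) and in 3 other alternatives, over a range of 0.00697 to 0.0809. That of DTX1 was lost in 8 of 15 alternatives, among them leaving out any control array (up to 0.112 without replicate 2) or LOX-PP replicate 2 (0.0709) or 3 (0.0536), over a range of 0.00752 to 0.112.

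No probe of the other 5 roles passed. The largest t among ligands outside the members belonged to MFAP2 (-1.41, adjusted p = 0.0837), a microfibril protein that binds Jagged1. Among receptor glycosylation enzymes it was LFNG, the Fringe glycosyltransferase, with 0.94 (adjusted p = 0.186) and 0.36 at its second probe (adjusted p = 0.710). Among the receptor proteases it was PSEN2, a catalytic subunit of gamma-secretase (0.74, adjusted p = 0.0812), whereas ADAM10, which makes the cut before it, gave 0.16 and 0.45 (adjusted p = 0.781 and 0.366). In the nuclear complex it was the Mastermind co-activator MAML3, with 0.99 (adjusted p = 0.202) and 0.15 at its second tested probe (adjusted p = 0.862), and RBPJ itself gave -0.39 and -0.27 (adjusted p = 0.331 and 0.551). Among the other targets it was NRARP, a target that feeds back on the pathway, with 0.84 (adjusted p = 0.0918). Of the 9 tested probes of that role, from 6 genes, 7 lay below the median of all probes and 2 above it. All 4 probes of HES6 were among the 7, and lying below that median did not always mean a negative change. The 4 probes of HES6, a HES family member, gave -0.49, -0.50, 0.02 and -0.45, with adjusted p from 0.432 to 0.973.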

How the data were processed

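The authors hybridised RNA from 6 cultures, 3 per group, with Cy3 label to Agilent SurePrint G3 arrays (1 colour, 58717 gene spots). They deposited the spot intensity written by Feature Extraction (version 10.7, per the submitters' processing notes), already corrected for background, with flags for outliers and spots well above background. Their deposited table of processed log2 values matched the values computed here, once both were centred on each probe's median, within 0.02 for all 50528 probes compared. Here control and outlier spots were left out (213 to 353 outliers per array, 5 among the Notch spots), log2 values were averaged per probe and the 75th percentile was subtracted. Probes with at least 1 spot well above background on 3 of 6 arrays were tested in limma (version 3.58.1, R 4.3.3) with group only, and p-values were Benjamini-Hochberg adjusted over 32647 probes. The number of arrays limits the precision. The p-values set the difference between groups against the spread between these cultures, and do not cover differences between separately selected cells.

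Accessions were named through a RefSeq table of GRCh38.p14 (28174 of 50599 probes), and promoters came from the matching RefSeq table, which gave 8 of 10 members. Members and lists were chosen with earlier results of these data known. Named genes were all members, each pathway gene past the threshold or, in a role with none, the gene with the largest t, the 3 genes most like each member past the threshold, LOX, RBPJ, ADAM10 and HES6. TLE3 and TLE4 were added beside TLE1 and TLE2 after their values were seen. The alternatives changed the scaling (quantile normalization, or the median of the brighter probes that all 6 arrays measured), the values (the authors' own table), the background (normexp with offset 50 on the median spot signal, or a common floor at -4.81), the filter (none, or all 6 arrays above background), the model (slide block, replicate block, the methods' t-test) and the arrays (leaving out each in turn). They were run for the 4 pathway calls after their values were seen. The steps were tested on simulated data in which 200 of 32647 probes were changed. Of these 200, 0 were recovered at a log2 change of 1, 84 at 2 and 153 at 3. Unchanged probes that passed numbered 0, 5 and 13. In the data 1849 probes passed, which sets a different adjusted threshold, so these shares do not carry over directly.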

Additional observations from a re-analysis of the deposited data

How the results depend on the processing

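The count of all tested probes past the threshold, 1849, was 516 of 50599 with no filter on dim probes, 860 with a replicate block and 566 in the methods' t-test. It ran from 407 to 2062 when 1 array was left out (407 without control replicate 1, 444 without control replicate 2, 892 without LOX-PP replicate 2 and 1037 without LOX-PP replicate 3). Under quantile normalization 908 of 1891 calls (48.0%) were higher, against 1080 of 1849 (58.4%). The 2 Notch probes lower became 0 with no filter and in the methods' t-test, 1 where all 6 arrays had to be well above background (HEY1 is not tested there), 1 with the replicate block (HEY1, adjusted p = 0.0448, whereas JAG1 had 0.0614) and from 0 to 2 without 1 array, with 0 without control replicate 1 or 2 and 1 without LOX-PP replicate 2 or 3. No alternative gave a Notch probe higher past the threshold. The 4 calls of the wider pathway became 2 with no filter and 2 with the replicate block, and from 1 to 5 without 1 array (1 without control replicate 1 or 2). The sign of the first NOTCH1 probe turned under quantile normalization (-0.12), without control replicate 3 (-0.046) and without LOX-PP replicate 3 (-0.01), where leaving out single arrays gave -0.046 to 0.20. That of DLL1 turned under normexp (0.33), the common floor (0.040) and the slide block (0.11), and without control replicate 3 (0.34), LOX-PP replicate 1 (0.23) or LOX-PP replicate 2 (0.15), within -0.46 to 0.34 over the single arrays left out. The cause was not tested. The other 9 member probes kept their sign in every alternative. Same-numbered arrays deviated from their group means together with r = 0.27, -0.39 and 0.23, and not every array correlated best with its own number. Deviations from a group mean sum to 0 within each group, so these values cannot decide whether the replicate numbers pair the arrays. The dimness of DLL1, HEY2 and the LOX-PP values of HEY1 limits what their probes can show.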
